A study of Mus musculus with 8 samples.

Results

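The cells described here are 220 long-term haematopoietic stem cells (LT-HSC) that were sorted as positive for the surface protein Dlk1 and then divided by whether Dlk1 RNA was seen in them. They come from untreated wild-type male C57BL/6J mice, aged 18 months, and were sorted from bone marrow as lineage-negative, CD150+, CD48-, CD34-, Kit+, Sca1+ and Dlk1+. A matching sort of Dlk1- cells from mice of the same kind served as a reference. RNA was read by mCEL-Seq2, a plate method that tags the 3' end of each polyadenylated molecule with a barcode for the well and a unique molecular identifier (UMI), and each sort gave 4 libraries. The series holds 541 such cells, 220 of the Dlk1+ and 321 of the Dlk1- sort. Each cell was reduced at random to 1000 UMIs. Cells were selected on the Dlk1 UMIs left by that step: 92 cells with at least 1 Dlk1 UMI are called RNA-positive and the other 128 RNA-negative. Which animals went into which library is not stated, and the number of mice is not given. The p-values against the Dlk1- sort measure the spread between libraries. Within the Dlk1+ sort, where the library is a block or pair, they measure how the difference between the groups of a library varies over libraries. Both spreads may be technical.

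Dlk1 is a transmembrane protein related to the Notch ligands that lacks the domain by which those ligands bind Notch receptors, and it can be shed from the surface as a soluble form. Its gene is imprinted: the paternal copy is expressed, while the maternal chromosome expresses the long noncoding RNAs Meg3, Rian and Mirg from the same cluster. The cluster is active in fetal tissues and in haematopoietic stem cells, where the maternal RNAs have been linked to restraint of growth signalling. RNA of a gene is made in bursts and lost within hours, whereas a surface protein can outlast it.

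In GRCm38 (mm10) Dlk1 lies on chromosome 12 from 109452823 to 109463336 on the plus strand. Meg3 follows on the same strand from 109541001 to 109571726, then Rian from 109603940 to 109661716 and Mirg from 109729764 to 109749460, all as annotated noncoding RNA genes.

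Dlk1+ library 3 stood apart. It had a median of 1350 transcripts per RNA-negative and 1249 per RNA-positive cell, against 3406 to 4989 in the other 3 Dlk1+ libraries, and its RNA-positive group was 7 cells with 8947 UMIs in all. Summed levels are given below as CPM, UMIs of a gene relative to all UMIs of the summed cells, and a single UMI of that group is worth 112 CPM. In the 8 sums of the Dlk1+ sort Kit was between 33.9 and 517 CPM, Slamf1 (CD150) between 39.4 and 135 CPM and Ly6a (Sca1) between 133 and 339 CPM. Cd48 was at 0 in 7 of the 8 sums and at 19.1 CPM in the RNA-negative cells of library 4, and Cd34 reached 138 CPM. Wells reuse the same barcodes: 8 barcode numbers held a cell in all 4 Dlk1+ libraries and 84 of 86 in at least 2, so a barcode number does not identify a cell across libraries.

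Dlk1 RNA was sparse even in the positive sort. RNA-positive cells numbered 31 of 86 in library 1, 15 of 27 in library 2, 7 of 26 in library 3 and 39 of 81 in library 4, which is 41.8% of all (95% Wilson interval 35.5 to 48.4, covering counting error only). In the Dlk1- sort the same step gave 7 of 321 cells, or 2.18% (1.06 to 4.43), although the Dlk1- cells were deeper. Of the 92 RNA-positive cells 65 had exactly 1 Dlk1 UMI, 15 had 2 and 12 had 3 or more, with a maximum of 5. Cells just inside and just outside the limit of 1 UMI were therefore close to each other. Of the 128 RNA-negative cells 61 (47.7%) carried a Dlk1 UMI among the UMIs that the random step removed, and 67 had none at all. With all UMIs counted 153 of 220 cells (69.5%) had a Dlk1 UMI and the highest cell had 19.

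**Figure D1:**
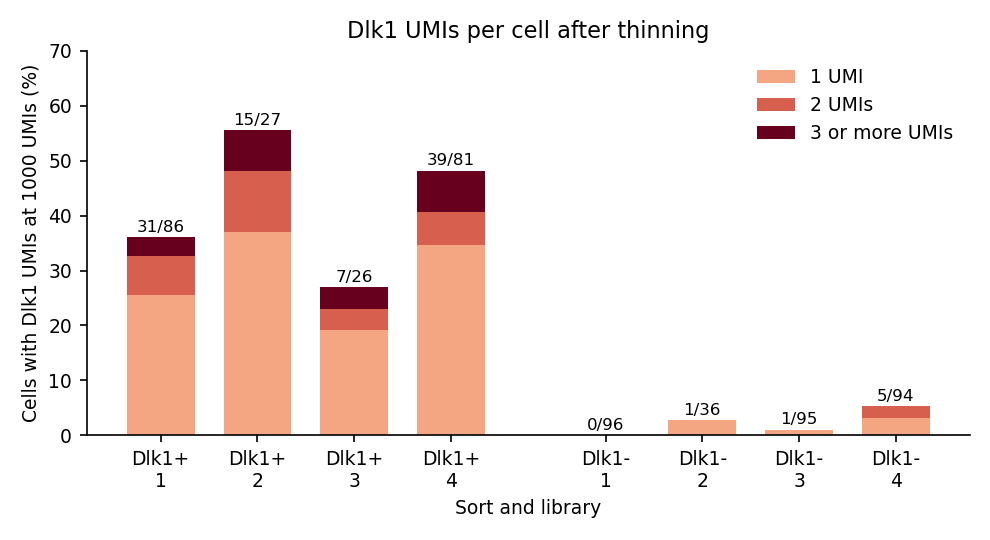
Share of cells with 1, 2 or 3 and more Dlk1 UMIs after each cell was reduced to 1000 UMIs (y axis, percent of cells), for the 4 Dlk1+ and 4 Dlk1- libraries (x axis), with the RNA-positive and all cells above each bar. RNA-positive cells were most often cells with exactly 1 UMI, 65 of 92 over the Dlk1+ libraries.

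Over all UMIs of the grouped cells Dlk1 was at 845, 1084, 1341 and 1213 CPM in the RNA-positive cells of libraries 1 to 4 and at 217, 216, 67.7 and 244 CPM in the RNA-negative cells. These levels were fixed by the selection and were not tested. Barcodes not used in the Dlk1+ libraries held 1 Dlk1 UMI among 9570. The division itself depended on the random step: when it was repeated with 4 other random draws, 109 of the 220 cells were in different groups in different draws, and 32 cells were RNA-positive in all 5.

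Genes other than Dlk1 were then compared between RNA-positive and RNA-negative cells of the same library, with the library as a block. Of 1014 genes tested, 0 were called at a Benjamini-Hochberg adjusted p of 0.05 (0%), by limma-voom and by limma-trend alike. Without adjustment 36 genes had limma-voom p-values under 0.05 and were higher in RNA-positive cells (3.55%), and 39 were lower (3.85%). By limma-trend 41 genes had such p-values. The smallest adjusted p by limma-voom was 0.0598, shared by Tuba1a, Top2a and the predicted genes Gm21833, Gm29055, Gm37746 and Gm37158, all lower in RNA-positive cells. In the 4 other random draws of the same cells the number of genes called was 25, 10, 28 and 15, of which 4, 1, 4 and 2 were higher. The 5 draws share their cells and libraries and are not replicates of each other. The genes called in all 4 other draws were 8: Tuba1a, Top2a, Gm21833, Gm29055, Gm37746, Gm37158, Gm37954 and A430073D23Rik, all lower in RNA-positive cells. Of these, Top2a was tested only through the group where it is high, as described below. A further 8 were called in 3 of the 4, namely Meg3 and Glul, both higher, and Stmn1, Tubb5, Gm10715, Gm10717, Gm17555 and Gm21750, all lower.

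**Figure D2:**
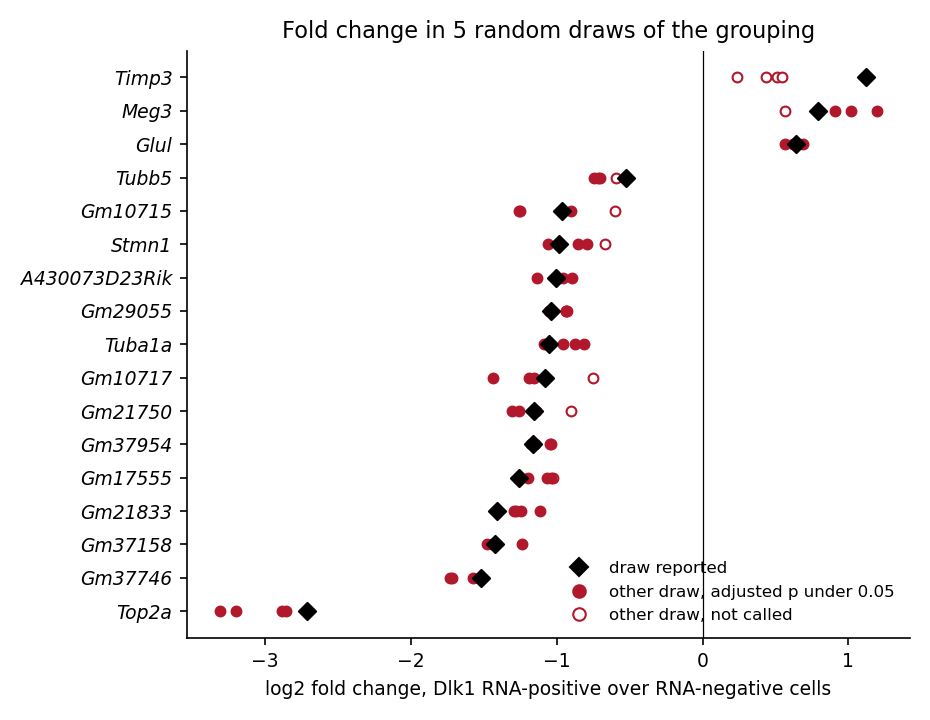
Log2 fold change of RNA-positive over RNA-negative cells (x axis) for Timp3 and the genes called in at least 3 of the 4 other random draws (y axis). Black diamonds are the draw reported in the text, filled red circles are other draws with an adjusted p under 0.05 and open circles are other draws without a call. Timp3 lies lower in all 4 other draws than in the draw reported.

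Meg3, the maternally expressed RNA next to Dlk1, had more RNA in the RNA-positive cells of each library. It was at 423, 184, 336 and 858 CPM in the RNA-positive cells of libraries 1 to 4 and at 221, 177, 169 and 469 CPM in the RNA-negative cells. The order held within all 4 libraries, by little in library 2, and the ranges of the groups overlapped, with library 4 highest in both. The log2 fold change was 0.79 ± 0.18 (SE; limma-voom, adjusted p = 0.125). In the other draws the log2 fold change of Meg3 was between 0.57 and 1.20. When the RNA-negative group was limited to the cells with no Dlk1 UMI among all their UMIs, it was 1.38 with an adjusted p of 0.0185 by limma-voom, and 1.20 with an adjusted p of 0.0238 when the 2 deep cells described below were also left out. Cells with a Meg3 UMI at 1000 UMIs made up 38.7%, 20%, 28.6% and 53.8% of RNA-positive and 30.9%, 8.33%, 21.1% and 38.1% of RNA-negative cells in libraries 1 to 4. The mean difference was 10.7 percentage points, higher in 4 of 4 libraries, with a two-sided exact permutation p of 0.125, the smallest that 4 pairs allow, and 0.292 after adjustment over 7 measures. In the 4 other draws the mean difference was 19.01, 18.4, 5.38 and 9.13 percentage points, with libraries 1 and 2 reversed in the third of them and library 1 in the fourth.

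The other RNAs of the cluster were near the limit of detection. Rian, the host of a cluster of small nucleolar RNAs, was at 39.2, 0, 0 and 47.9 CPM in RNA-positive and at 37.5, 98.4, 0 and 34.3 CPM in RNA-negative cells. Mirg, a host of microRNAs, was at 0, 61.4, 0 and 16 CPM in RNA-positive and at 8.34, 19.7, 0 and 11.4 CPM in RNA-negative cells. With 14 and 23 UMIs of Rian and 6 and 6 of Mirg in the 2 groups neither passed the filter, and no difference was detectable at this depth. Among 22 other imprinted genes measured, 3 were tested and 0 had an unadjusted p under 0.05. Grb10, an adaptor that restrains insulin signalling, had a log2 fold change of -0.46 ± 0.34 (SE; limma-voom, adjusted p = 0.863). Cdkn1c, an imprinted inhibitor of the cell cycle, was too low for the test. It was at 110, 123, 112 and 85.2 CPM in RNA-positive and at 70.9, 118, 67.7 and 68.6 CPM in RNA-negative cells, and the ranges of the groups overlapped. Igf2, a fetal growth factor, was at most 31.3 CPM in RNA-positive and 41.7 CPM in RNA-negative cells, and its receptor Igf2r at most 63.9 and 53.4 CPM. H19, a noncoding RNA that neighbours Igf2, was at 0 in 3 of the 4 RNA-positive sums. Ndn, an imprinted growth suppressor, was at 54.8, 61.4, 224 and 63.9 CPM against 33.4, 98.4, 0 and 45.8 CPM.

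**Figure D3:**
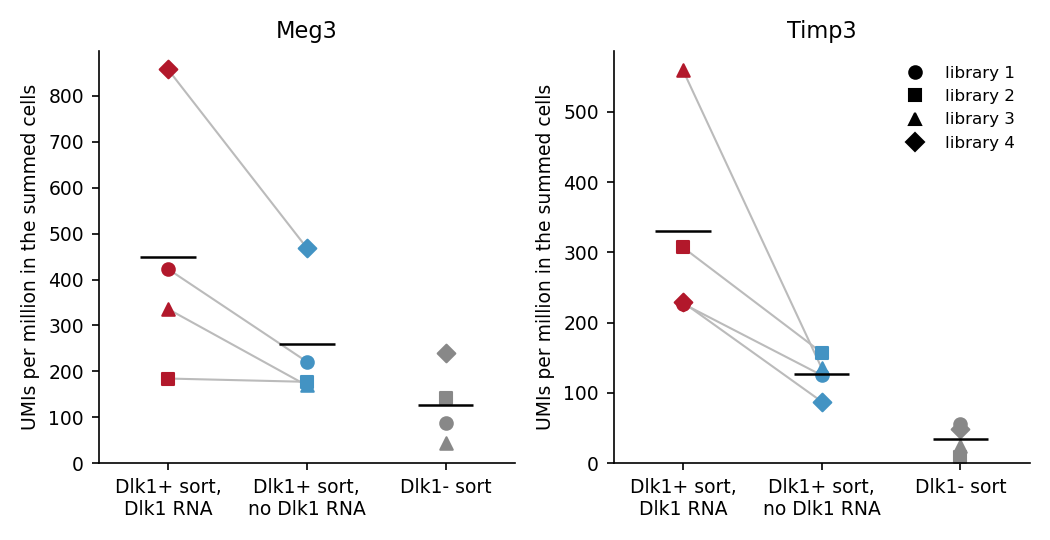
Meg3 and Timp3 in CPM of the summed cells (y axis) in RNA-positive cells of the Dlk1+ sort, RNA-negative cells of the Dlk1+ sort and cells of the Dlk1- sort (x axis). Each symbol is 1 of 4 libraries, grey lines join the groups of 1 library and black bars are means. Both genes are higher in RNA-positive than in RNA-negative cells of each library.

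Timp3, a secreted inhibitor of metalloproteinases that also acts on the sheddases that release surface proteins, was at 227, 307, 560 and 229 CPM in RNA-positive and at 125, 157, 135 and 87.7 CPM in RNA-negative cells. The lowest RNA-positive sum lay above the highest RNA-negative sum. The log2 fold change was 1.12 ± 0.28 (SE; limma-voom, adjusted p = 0.184). The value moved with the random draw: in the other 4 draws the log2 fold change of Timp3 was between 0.23 and 0.54, with 0 calls. Timp3 (chromosome 10, 86300372 to 86349506, plus strand) lies within Syn3 (86055125 to 86498896) on the opposite strand, and whether the counting used strand is not given in the sources used here. Cells with a Timp3 UMI made up 15.97% ± 4.59 of RNA-positive and 8.65% ± 6.16 of RNA-negative cells (SD, n = 4 libraries, higher in 4 of 4, two-sided exact permutation p of 0.125, adjusted 0.292). The mean difference was 7.33 percentage points, and 3.10 without library 2. In the other draws it was 14.3, 1.59, 11.8 and 0.91 percentage points, with 2 libraries reversed in each of the draws of 1.59 and 0.91. Of 12 genes of the inhibitor and metalloproteinase list only Timp3 passed the filter. Of 29 Notch pathway genes 1 was tested, with a log2 fold change of 0.12. Notch1 had UMIs in 8 cells and Notch2 in 43 of the 220. Hes1, a target of Notch signalling, was at 47, 20.5, 0 and 21.3 CPM against 20.9, 78.7, 0 and 11.4 CPM, and Adam17, a sheddase, at 0 to 39.2 CPM against 0 to 25 CPM, both too low for the test.

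Other genes with small p-values included enzymes and regulators. Glul (chromosome 1, 153899944 to 153909723, plus strand), the enzyme that makes glutamine from glutamate and ammonia, was at 658, 573, 560 and 948 CPM in RNA-positive and at 355, 433, 169 and 641 CPM in RNA-negative cells. Its log2 fold change was 0.64 ± 0.16 (SE; limma-voom, adjusted p = 0.179), and it was between 0.57 and 0.69 in the other draws. Smarca2, an ATPase of chromatin remodelling complexes, was at 290, 410, 672 and 288 CPM against 184, 157, 339 and 168 CPM, with a log2 fold change of 0.79. St3gal1, a sialyltransferase, had a log2 fold change of 0.56 in the draw reported and between -0.13 and 0.28 in the others. Itsn1, an endocytic scaffold, Adgrl4, an adhesion receptor, and Ago1, which carries small RNAs, complete the 8 genes with the smallest p among those higher in 4 of 4 libraries, with log2 fold changes of 0.85, 0.49 and 0.94. None of these 5 was called in any other draw. Among the genes lower in 4 of 4 libraries, Cul1, the scaffold of a family of ubiquitin ligases, had a log2 fold change of -1.28, Anp32b, a histone chaperone, one of -0.63, and the unnamed transcripts Gm37880 and A230046K03Rik had -1.62 and -0.57. Cul1 and Gm37880 reached the minimum of the filter, 112 CPM, in 0 RNA-positive and 4 RNA-negative sums. A gene that is tested only because it is high in 1 group has to differ, so these values describe and support nothing.

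As a measure of likeness to Dlk1, genes were ranked by the difference in the share of cells with a UMI at 1000 UMIs, as a mean over libraries. The first 4 were Srrm2 (25.9 percentage points), Glul (25.4), Adgrl4 (23.7) and Sf1 (22.7). Srrm2 and Sf1 are splicing factors. The shares of Srrm2 were 55.9% in RNA-positive and 30.03% in RNA-negative cells. On the scale of summed UMIs these genes differed less: the log2 fold changes were 0.40 for Srrm2 and 0.45 for Sf1, and the adjusted p of each was at least 0.656 by limma-voom. Library 3, with 7 RNA-positive cells, has the same weight in such a mean as the others. Without it the differences were 16.4 percentage points for Srrm2, 18.3 for Glul, 19.1 for Adgrl4 and 8.76 for Sf1, and Sf1 ranked 110. Sf1 was reversed in library 2 (20% against 25%) and Srrm2 in library 4 (33.3% against 38.1%).

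Top2a, Tuba1a, Stmn1 and H2afz, which are abundant in dividing cells, had lower levels in the RNA-positive cells of 4 of 4 libraries. That order in all libraries was a condition for naming them. None of the 4 passed in the draw reported. Top2a (chromosome 11, 98992943 to 99024189, minus strand), a DNA topoisomerase of dividing cells, was at 54.8, 0, 0 and 53.3 CPM in RNA-positive and at 175, 492, 406 and 153 CPM in RNA-negative cells, and the groups did not overlap. Like Cul1, it reached 112 CPM in 0 RNA-positive and 4 RNA-negative sums, so it was tested only through the group where it is high. The log2 fold change of Top2a was -2.71 ± 0.55 (SE; limma-voom, adjusted p = 0.0598), and it was between -3.31 and -2.86 in the other draws, called in 4 of 4. As for Cul1, these values and calls describe and support nothing. Tuba1a (chromosome 15, 98949837 to 98953703, minus strand), an alpha-tubulin, was at 579, 717, 1119 and 522 CPM in RNA-positive and at 780, 2953, 3182 and 942 CPM in RNA-negative cells, lower in 4 of 4 libraries. Its log2 fold change was -1.05 ± 0.20 (SE; limma-voom, adjusted p = 0.0598), and between -1.09 and -0.81 in the other draws. Reads of Tuba1a may be shared with near-identical tubulin genes. Stmn1, which destabilises microtubules, was at 384, 328, 448 and 304 CPM against 446, 1398, 1727 and 549 CPM, with a log2 fold change of -0.99 (limma-voom, adjusted p = 0.199). H2afz, a histone variant, was at 196, 184, 112 and 213 CPM against 263, 630, 305 and 427 CPM, and its groups did not overlap. In the Dlk1- sort Tuba1a was at 524 to 1035 CPM and Top2a at 50.9 to 141 CPM.

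Of 20 genes of the G2/M list 2 passed the filter, Top2a and the tubulin gene Tubb4b. The summed level of the list was 360, 184, 783 and 437 CPM in RNA-positive and 1043, 2834, 1117 and 1628 CPM in RNA-negative cells, lower in 4 of 4 libraries, and 622 to 1710 CPM in the Dlk1- sort. In library 3 all 783 CPM of the RNA-positive group were from Tubb4b. Mki67, a marker of cycling cells that was too low for the test, was at 7.83, 0, 0 and 10.7 CPM in RNA-positive and at 163, 276, 33.9 and 206 CPM in RNA-negative cells, from 3 and 108 UMIs. Of the S phase list 2 of 19 members were tested. Pcna, the sliding clamp of DNA replication, had a log2 fold change of -0.67 (limma-voom, adjusted p = 0.656), and Mcm7 had one of -0.72 ± 0.56 (SE). The summed S phase list was lower in RNA-positive cells of 3 libraries and higher in library 1.

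These sums rested on few cells. Top2a had UMIs in 23 of 220 cells. The 12 cells with 5 or more Top2a UMIs, a limit chosen after the values were seen, held 85.3% of them. Of these 12 cells 11 were RNA-negative, and 10 had no Dlk1 UMI among all their UMIs, against 67 of all 220 cells (30.5%). They were found in all 4 libraries (3, 2, 2 and 5 cells). Their median depth was 8353 UMIs against 3909 in all cells, so they were deeper than most. RNA-positive cells with Top2a RNA had 4, 2 and 1 UMIs in library 1 and 5, 2, 1, 1 and 1 in library 4. RNA-negative cells with Top2a RNA had 15, 13, 9, 3, 1 and 1 in library 1 and 15, 7 and 3 in library 2. They had 6 and 6 in library 3 and 15, 13, 7 and 5 in library 4. The groups held 17 and 119 Top2a UMIs. After the random step Top2a was seen in 2.25% of RNA-positive and 9.95% of RNA-negative cells, as means over libraries. The sums alone cannot tell fewer dividing cells from less RNA per dividing cell, and the split per cell was not tested.

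**Figure D4:**
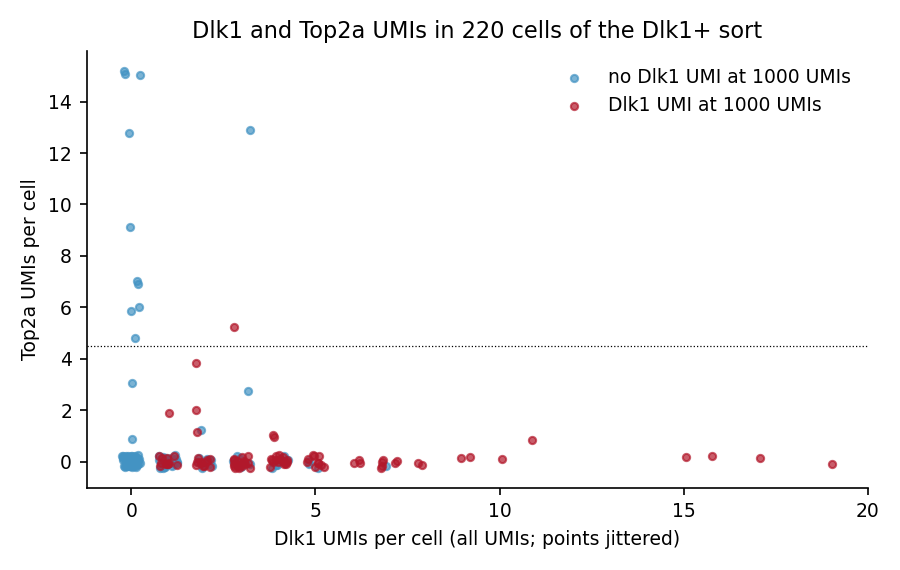
Dlk1 UMIs per cell (x axis, all UMIs) and Top2a UMIs per cell (y axis) in the 220 cells of the Dlk1+ sort, coloured by the group after reduction to 1000 UMIs, with points shifted slightly at random so that they do not cover each other. The 12 cells above the dotted line have 5 or more Top2a UMIs, and 10 of them have no Dlk1 UMI.

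The deepest cell carried another signal. A single RNA-negative cell of library 4 with 36327 UMIs held 784 of the 789 UMIs of S100a9 and 458 of the 466 of Ngp in the Dlk1+ sort, both genes of neutrophils, together with 7 Top2a UMIs. The summed myeloid list was 8179 CPM in the RNA-negative cells of library 4, against 0 to 506 CPM in the other 7 sums of the Dlk1+ sort. This cell and 1 RNA-negative cell of library 1 with 14151 UMIs were the only cells far above their library's median depth. With both left out and the draw of the other cells held, 0 genes passed in the draw reported, with a smallest adjusted p of 0.177 by limma-voom, and the 4 other draws called 15, 6, 8 and 8 genes in place of 25, 10, 28 and 15. Without these 2 cells Tuba1a and Top2a were called in 4 of the 4 other draws, with log2 fold changes between -1.06 and -0.78 for Tuba1a and between -3.31 and -2.82 for Top2a. For Top2a, tested through the group where it is high, the calls support nothing. Meg3 was called in 3 of 4, with log2 fold changes between 0.43 and 1.11, and in the draw reported it was 0.67 in place of 0.79. Timp3 was called in 0 of 4, and in the draw reported its log2 fold change was 1.02 in place of 1.12. Of the 16 genes called in at least 3 other draws 8 were still called in at least 3 without these cells: those 3, Stmn1, Tubb5, Gm21833, Gm37158 and Gm29055. Glul, Gm37746 and Gm10717 were called in 1 of 4, Gm37954 and Gm10715 in 2, and A430073D23Rik, Gm17555 and Gm21750 in 0.

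Several predicted genes had small p-values, with lower levels in the RNA-positive cells of 3 of 4 libraries. Gm21833 was at 2976, 2089, 2014 and 1071 CPM in RNA-positive and at 9404, 964, 4232 and 2181 CPM in RNA-negative cells, so library 2 went the other way. Its log2 fold change was -1.41 ± 0.24 (SE; limma-voom, adjusted p = 0.0598). The 3 cells with 100 or more UMIs of Gm21833, all RNA-negative with no Dlk1 UMI at all, held 42.6% of its UMIs, and the library 1 cell of 14151 UMIs was among them. Without the 2 deep cells the log2 fold change of Gm21833 was between -0.83 and -0.64 in the other draws, in place of -1.29 to -1.11. Gm29055 was at 3140, 1843, 560 and 1225 CPM against 6784, 827, 1354 and 2475 CPM, again with library 2 reversed. Of the satellite-like list, transcripts that resemble repeated satellite DNA, 4 of 6 were tested. An unadjusted limma-voom p under 0.05 was found for 3, all lower in RNA-positive cells, against 3.85% of all genes tested. The most abundant, Gm10800, had a log2 fold change of 0.10 ± 0.18 (SE). Reads of such genes may be split between near-identical copies. Without library 2 the count of calls was 21, all lower, and it was 0 without library 1, 1 without library 3 and 0 without library 4.

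Genes of stem cell identity differed by small amounts, and no member passed after adjustment. Of the 24 listed 15 were tested and 14 had a log2 fold change above 0, against 551 of all 1014 genes tested, with a median of 0.26 against 0.03. An unadjusted p under 0.05 was found for 2 of them, both higher, against 3.55% of all genes tested. Hlf, a transcription factor of stem cell self-renewal, was at 650, 696, 560 and 826 CPM in RNA-positive and at 530, 335, 440 and 564 CPM in RNA-negative cells, with a log2 fold change of 0.45 ± 0.18 (SE; limma-voom, adjusted p = 0.609). Lmo2, an adaptor of haematopoietic transcription complexes, had a log2 fold change of 0.24, and Kit, the receptor for stem cell factor, one of 0.38. Procr had one of 0.55 and Mecom one of 0.36, with standard errors of 0.30 and 0.31. The summed list was 6671, 5653, 5708 and 8298 CPM in RNA-positive and 5737, 4842, 3995 and 6757 CPM in RNA-negative cells, higher in 4 of 4 libraries with overlapping ranges, and the Dlk1- sort was at 5712 to 7414 CPM. Mllt3, which supports stem cell maintenance, had one of 0.26. The median of the list was between 0.11 and 0.26 in the other draws.

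Of 34 genes known to be raised in aged stem cells 9 were tested, and 6 had a log2 fold change above 0, with a median of 0.37. Of all 1014 genes tested 551 were above 0, with a median of 0.03. An unadjusted limma-voom p under 0.05 was found for 2 of the 9, both higher, against 3.55% of all genes tested. Gda, a guanine deaminase, was at 274, 348, 448 and 533 CPM in RNA-positive and at 242, 177, 169 and 328 CPM in RNA-negative cells, with a log2 fold change of 0.58 (limma-voom, adjusted p = 0.609). Sult1a1, a sulfotransferase, had one of 0.43, Aldh1a1, a retinaldehyde dehydrogenase, one of 0.17, and Vwf, the clotting factor that marks platelet-biased stem cells, one of -0.27 ± 0.35 (SE). Selp, which encodes P-selectin, had one of 0.39. Nupr1, a stress-induced regulator, was too low for the test, at 125, 81.9, 112 and 208 CPM against 62.6, 39.4, 33.9 and 103 CPM, higher in 4 of 4 libraries. The median of this list was between 0.16 and 0.28 in the other draws, lower than in the draw reported.

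**Figure D5:**
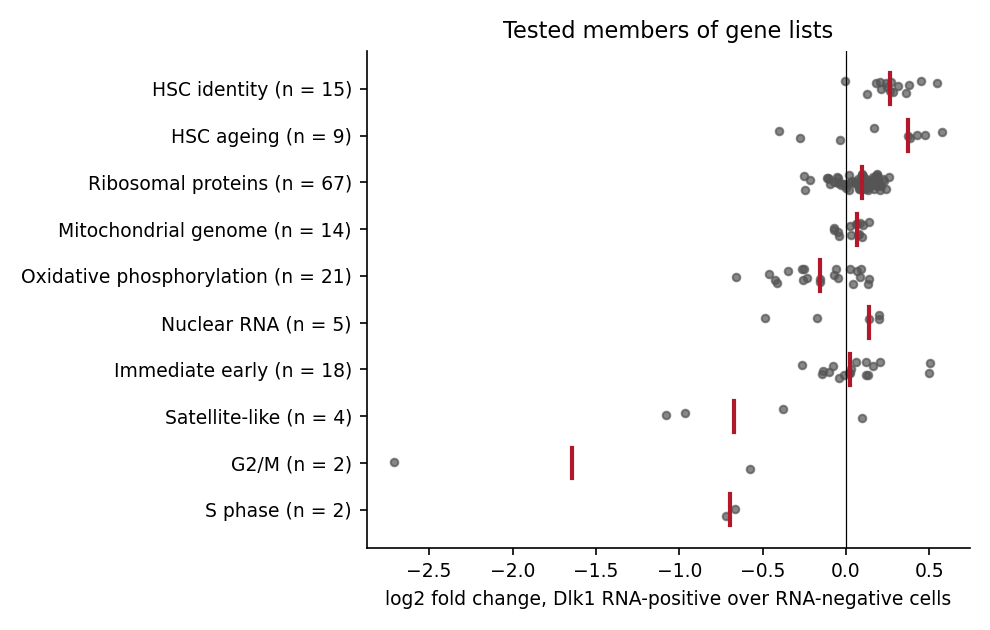
Log2 fold change of RNA-positive over RNA-negative cells (x axis) for the tested members of 10 gene lists (y axis, with the number tested); each point is a gene and each red bar a list's median. The stem cell identity list has 14 of 15 members above 0.

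Housekeeping classes differed less. Of 67 ribosomal protein genes tested 51 had a log2 fold change above 0, against 551 of all 1014 genes tested. Their median was 0.10 against 0.03. An unadjusted limma-voom p under 0.05 was found for 3 of the 67, all higher, near the 3.55% of all genes tested. Of 14 genes of the mitochondrial genome the median was 0.07, and of 21 nuclear genes of oxidative phosphorylation it was -0.15 with 0 at an unadjusted p under 0.05. Of 18 immediate early genes 0 had an unadjusted p under 0.05, with a median of 0.03, and Fos had a log2 fold change of 0.13 ± 0.12 (SE). Malat1, an abundant nuclear RNA, had one of 0.20 (limma-voom, adjusted p = 0.656). Per cell, median genes at 1000 UMIs were 545 ± 48.3 and 560 ± 58.7, and mitochondrial, ribosomal protein and satellite-like shares differed by 0.29, 0.09 and 1.69 percentage points between RNA-positive and RNA-negative cells (SD, n = 4 libraries, two-sided exact permutation p of at least 0.75 for each). Median depth was lower in RNA-positive cells of 4 of 4 libraries, by 0.06 on the log2 scale as a mean (values of -0.06 with an SD of 0.04, exact permutation p of 0.125, adjusted 0.292).

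Summed markers of stroma, hepatic and lymphoid cells were low in both groups, and myeloid markers were highest in the sum with the deepest cell. Sums of endothelial, erythroid and above all megakaryocyte genes reached higher levels than stroma, hepatic and lymphoid sums. The 14 stroma genes in the tables summed to 0 to 54.8 CPM in RNA-positive and 61.01 to 256 CPM in RNA-negative cells, lower in 4 of 4 libraries, and to 23.3 to 45.6 CPM in the Dlk1- sort. Among them Cxcl12, a chemokine of marrow stroma, was at 0 in all RNA-positive sums and at 41.7, 138, 0 and 11.4 CPM in RNA-negative cells, from 20 UMIs in 10 cells, and Dcn and Vcam1 were at 0 in both groups. Hepatic genes summed to at most 29.2 CPM, with Ahsg, Apoa2, Fgb, Rbp4 and Ttr at 0. Endothelial genes summed to 368 to 597 CPM and 380 to 571 CPM, lymphoid genes to 0 to 192 and 0 to 233 CPM, megakaryocyte genes to 1475 to 1726 and 1314 to 1896 CPM, and erythroid genes to 112 to 1023 and 474 to 946 CPM in RNA-positive and RNA-negative cells. Their part in the differences described above was not tested.

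The RNA-negative cells were also compared with the Dlk1- sort, to see how cells that carry the protein but showed no Dlk1 RNA relate to cells sorted without the protein. These sums share the RNA-negative cells with the comparison above, and the RNA-negative cells still held 67.7 to 244 CPM of Dlk1 against 4.03 to 50.9 CPM in the Dlk1- sort. Over 3595 genes 0 passed by limma-voom (0%) and 0 by limma-trend. Without adjustment 84 genes were higher (2.34%) and 211 lower (5.87%) in the RNA-negative cells at limma-voom p-values under 0.05 (217 in all by limma-trend), with a median log2 fold change of -0.09 over all genes. By the names of the tables, libraries 1 and 2 of both sorts came from plate 5 and libraries 3 and 4 from plate 6. The fit and the permutation tests of this comparison did not use the plate. With the replicate number as a block 0 genes passed by limma-voom. The log2 fold change was then 1.04 for Meg3 and 1.49 for Timp3, in place of 1.31 and 1.67.

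Timp3 in RNA-negative cells, at 87.7 to 157 CPM, lay above all 4 Dlk1- libraries, which were at 56.4, 9.12, 23.8 and 48.8 CPM. The log2 fold change was 1.67 ± 0.40 (SE; limma-voom, adjusted p = 0.440), and 2.04 with an adjusted p of 0.0397 without Dlk1+ library 4. In 2 of the 4 other draws Timp3 was called once the 2 deep cells were left out, at 2.12 and 2.28 (limma-voom, adjusted p of 0.0448 and 0.0436). These 3 were the only calls of Timp3 in 26 alternatives, whose log2 fold changes were between 1.49 and 2.28. The limma-voom adjusted p in these alternatives reached 0.846. Timp3 reached the minimum of the filter in all 4 RNA-negative sums but not in all Dlk1- sums. It was thus tested through the group where it is high, and these values and calls describe and support nothing. For Meg3 the Dlk1- libraries were at 86.5, 141, 43.3 and 240 CPM, and their range overlapped that of the RNA-negative cells. The log2 fold change of Meg3 was 1.31 ± 0.43 (SE; limma-voom, adjusted p = 0.471). When the RNA-negative group was limited to cells with no Dlk1 UMI among all their UMIs, that of Meg3 was smaller, at 0.89 ± 0.48 (SE; limma-voom, adjusted p = 0.491). It was 0.94 when the 2 deep cells were also left out. For Timp3 the stricter group gave 1.64 (limma-voom, adjusted p = 0.247). Cells with a Meg3 UMI were 24.6% ± 12.9 of RNA-negative and 10.3% ± 6.85 of Dlk1- cells, a difference of 14.3 percentage points (SD, n = 4 libraries per sort, exact two-sided permutation p = 0.114, adjusted 0.333 over 7 measures). For Timp3 the shares were 8.65% ± 6.16 and 1.85% ± 1.33 (exact permutation p of 0.143, adjusted 0.333). So Meg3 and Timp3 had their highest mean in RNA-positive cells (450 and 331 CPM). RNA-negative cells came next (259 and 126.4 CPM), then the Dlk1- sort (128 and 34.5 CPM). With these groups, all libraries and cells and the filter used here, no neighbouring pair passed after adjustment in the draw reported. With a mean CPM of at least 100 as the filter, both genes passed between RNA-positive and RNA-negative cells. The limma-voom adjusted p was then 0.0267 for Meg3 and 0.0422 for Timp3. That setting kept the deep cells, and its calls with the smallest p-values were S100a9 and Ngp, whose UMIs came almost wholly from the deepest cell.

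H2-T23, a nonclassical MHC class I gene, had the smallest p of this comparison. It was at 58.4, 19.7, 0 and 202 CPM in RNA-negative cells and at 330, 310, 297 and 408 CPM in the Dlk1- sort, with a log2 fold change of -2.19 ± 0.47 (SE; limma-voom, adjusted p = 0.347). In RNA-positive cells H2-T23 was at 78.3, 41, 0 and 234 CPM, so both groups of the Dlk1+ sort lay below all Dlk1- libraries. The growth-arrest gene Cdkn1a was at 313 ± 112 CPM in RNA-negative cells and 121 ± 45.05 CPM in the Dlk1- sort (SD, n = 4 libraries each). Myc was at 51.1 ± 43.3 CPM against 149 ± 30.8 CPM. Their log2 fold changes were 1.18 and -1.56, with adjusted p of 0.440 by limma-voom for both. The genes of dividing cells Incenp, Stmn1 and Top2a were higher in the RNA-negative cells, with log2 fold changes of 1.45, 1.29 and 1.36 and the same adjusted p. All of these genes were picked for small p-values. Myc and H2-T23 reached the minimum of the filter in all 4 Dlk1- sums but not in all RNA-negative sums, and Incenp and Timp3 the reverse. Each of these genes was thus tested through the group where it is high, so their values in this comparison describe and support nothing. Of 72 ribosomal protein genes 56 had a log2 fold change below 0, with a median of -0.31, and 13 had an unadjusted p under 0.05, all lower, against 2131 of all 3595 genes below 0, a median of -0.09 and 5.87% lower at such p. Per cell the ribosomal protein share was 11.1% ± 2.60 and 11.4% ± 1.34 (SD, n = 4 libraries each, exact permutation p of 0.8286). Beside these values stands depth: the median number of transcripts per cell was lower in the RNA-negative cells by 0.69 on the log2 scale (difference of -0.69, exact permutation p of 0.0857, n = 4 libraries each), and its part in them was not tested.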

How the data were processed

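Male C57BL/6J LT-HSC were sorted as Dlk1+ or Dlk1-, and 96 wells were pooled per library, 4 libraries per sort, per the labels' protocols. The authors deposited 1 table per library with other values than raw reads or whole counts: estimated transcripts per gene symbol and barcode, not scaled for depth. BWA 0.6.2-r126 and genome build mm10 are named in the submitters' processing notes; annotation, filters and strand are not given in the sources used here. Undoing the usual correction for UMI collisions gave whole numbers for every value, the farthest value lying 3.64e-12 away where 1e-06 was allowed, and these UMIs were used throughout.

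Kept cells lay on barcodes 1 to 96 of the Dlk1+ libraries without 10 barcodes (17, 20 to 24 and 29 to 32) that held haemoglobin RNA, with at least 1000 transcripts. No doublet caller was run. Each cell was thinned without replacement to 1000 UMIs, which set its group and all shares of cells; where cells were left out or added, the draw of the other cells was held. Members and gene lists were chosen with earlier results of these data known, so lists are described by counts and medians only.

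All UMIs of a group's cells were summed per library without Dlk1, giving between 8947 and 262327 UMIs per sum in the Dlk1+ sort. Genes with at least the CPM of a count of 10 at the median total in 4 sums, and a total of at least 15, were fitted with limma-voom (limma 3.58.1, R 4.3.3) after trimmed mean of M-values scaling, with library as a block within the Dlk1+ sort and without a block against the Dlk1- sort. The count test written in the design, edgeR's, was not run because the tables' unit could not be checked as counts. Fold changes are on the log2 scale of voom. Both groups of a pair come from the same library, so the block follows from the design. Per-cell measures were summarised per library and compared with two-sided exact permutation tests, over sign changes of 4 pairs or 70 assignments of 8 libraries, with Benjamini-Hochberg adjustment over 7 measures (Python 3.11.15, NumPy 2.4.6, SciPy 1.17.1). Named genes were those past the threshold, the 8 with the smallest p per direction that kept their sign in all libraries, 5 by likeness to Dlk1, the most abundant list members and a fixed set, of which a few are not reported here; genes called only in other draws, in single cells or against the Dlk1- sort were named after their values were seen. Alternatives covered the draw, group rule, depth, cells, filter, scaling and single libraries.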

Additional observations from a re-analysis of the deposited data

Results flagged for a closer look

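In 36 sets of 4 values, 1 per library, 2 held a value far from the remaining 3, and chance alone gives about 1 in 20. Dlk1- library 2 had 36 cells, against 94 to 96 in the other 3. Dlk1 in the RNA-negative cells of Dlk1+ library 3 was at 67.7 CPM, against 216 to 244 CPM in the others; this value is fixed in part by the selection, and the cells of that library were the shallowest. In the Dlk1+ libraries haemoglobin genes made up 5.17% of the 115406 UMIs on the 10 barcodes left out here, in 25 wells, against 0.0104% in the 220 cells described. The count of genes called was 0 with these wells kept.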

How the results depend on the processing

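Among the settings below, limma-trend, the stricter RNA-negative group (no Dlk1 UMI among all UMIs), the draws without the 2 deep cells and some settings against the Dlk1- sort were added after seeing the data; the DESeq2 and edgeR alternatives were not run. Thinning to 2000 UMIs and leaving out the satellite-like genes also redraw the groups. Within the Dlk1+ sort, 0 genes passed in the draw reported and, apart from leaving out libraries, in 7 alternatives, among them the fit without the library as a block (no pairing, 0 calls, 20 at p under 0.05), limma-trend, thinning to 2000 UMIs and leaving out the deep cells. The count was 25, 10, 28 and 15 in draws 2 to 5, and 15, 6, 8 and 8 in these draws without the deep cells. It was 5 with library size alone, 53 with no filter and 13 with a mean CPM of at least 100, Meg3 and Timp3 among these 13. S100a9 and Ngp, whose UMIs came almost wholly from the deepest cell, had the smallest p-values of these 13. Both were also called with no filter. It was 14 when any Dlk1 UMI made a cell RNA-positive and 16 with the stricter RNA-negative group (11 without the deep cells). Leaving out 1 library gave 0 to 21 calls. The cause of these differences was not tested. Against the Dlk1- sort the count was 54 with no filter, 2 with the stricter group, with or without the deep cells, 1 (Timp3) in each of draws 2 and 3 without the deep cells, 0 to 17 leaving out 1 library, and 0 with the replicate number as a block; the 17 were found without Dlk1+ library 4 and 1 without Dlk1+ library 3.

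Of 29 named genes tested, 18 kept their sign in all alternatives, and 0 of the 29 changes of sign was in a called value. Fold changes of the opposite sign were, on the log2 scale, -0.13 for St3gal1, 0.25 for Grb10, -0.0063 for Kit, 0.033 for Vwf and -0.20 for Fos in draw 2, and -0.031 for Ly6a and -0.26 for Aldh1a1 in draw 4. Without the deep cells they were -0.0070 for Fos in the draw reported; -0.15 for St3gal1, 0.20 for Grb10, -0.078 for Mecom, -0.073 for Kit, -0.012 for Ly6a, 0.0084 for Vwf and -0.28 for Fos in draw 2; -0.16 for Ly6a and -0.35 for Aldh1a1 in draw 4; -0.074 for Ly6a and -0.015 for Aldh1a1 in draw 5; and -0.13 for Aldh1a1 with the stricter group. They were 0.18 for Vwf and -0.064 for Aldh1a1 with any Dlk1 UMI, -0.054 for Ago1, 0.093 for Vwf and -0.13 for Aldh1a1 with 2000 UMIs, -0.011 for Srrm2 and -0.089 for Sf1 without the satellite-like genes Gm10800 and Gm26870, -0.16 for Mecom by limma-trend and -0.24 for Fos in thinned sums.

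Of the measures per cell, the difference in median genes within the sort was 0.88 in draw 4, 10.8 in draw 5 and 1.25 with any Dlk1 UMI, and the satellite-like share differed by -1.54, -0.18 and -0.63 percentage points in draws 2, 3 and 5, -0.99 with any Dlk1 UMI and -1.11 with 2000 UMIs. With the 10 barcodes kept the mitochondrial share differed by -0.013. Leaving out 1 library gave -23.3 to 1.5 genes, -0.98 to 1.02 (mitochondrial), -0.42 to 1.15 (ribosomal), -0.95 to 3.32 (satellite-like), 8.995 to 11.7 (Meg3) and 3.10 to 9.52 (Timp3) percentage points. Against the Dlk1- sort the satellite-like difference was 0.58 in draw 2, the Meg3 difference was 14.5 in draw 5 and the Timp3 difference 10.98, 14.1 and 13.9 in draws 2, 3 and 5, each of these Meg3 and Timp3 values with an unadjusted exact permutation p of 0.0286, the smallest that 8 libraries allow; the values without Dlk1+ library 2 (19.7 and 9.69) and the depth difference without Dlk1+ library 4 (-0.91) had the same p. Leaving out 1 library against the Dlk1- sort gave log2 depth differences of -0.91 to -0.28, -28.8 to 14.1 genes, and -1.28 to 0.65 (ribosomal), -3.96 to 1.95 (satellite-like), 9.75 to 19.7 (Meg3) and 4.84 to 9.69 (Timp3) percentage points. Depth limits Dlk1+ library 3 most, where 1 UMI of the RNA-positive group is 112 CPM.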
